A study of Mus musculus with 17 samples.

Results

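The genes described here encode cell-surface receptors for extracellular nucleotides and enzymes that break those nucleotides down, in mouse pancreatic stellate cells. They are 9 of the 35896 genes in the count table: the ATP-gated ion channels P2rx3, P2rx4, P2rx5 and P2rx7, the G protein-coupled receptors P2ry1, P2ry2 and P2ry6, and the ectonucleotidases Nt5e and Entpd1. The set was chosen by the measured rise of P2rx3 when the kinase inhibitor neratinib was added to tumour organoid conditioned medium. That comparison is therefore given as a description without a test for every member, and for P2rx3 the comparisons of either conditioned medium with control are untested too.

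Pancreatic stellate cells are resident fibroblast-lineage cells of the pancreas, and they can give rise to fibroblasts around pancreatic tumours. The series holds 17 bulk RNA-seq libraries from the lines PSC4 (9 libraries) and PSC5 (8), both wild type C57BL/6J, grown in Matrigel and collected on day 4. The 5 control libraries were in control medium alone, and the 4 TGF-beta libraries had 20 ng/mL TGF-beta added to it. A further 4 libraries were in conditioned medium (CM) of pancreatic tumour organoids, and the last 4 had neratinib at 300 nM in the conditioned medium. Neratinib blocks the kinase activity of ERBB family receptors. No group had neratinib without conditioned medium, so its action in control medium was not measured. The CM libraries carry a medium code, T8 for replicate 1 and T6 for replicate 2 of each line, which the labels do not explain. Replicate numbers of a line go with passage (23 to 25 in PSC4, 27 and 28 in PSC5). Nothing in the labels says that replicates came from separate animals, so the p-values measure the spread between cultures of 2 lines.

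ATP leaves cells through channels, vesicles and damage, and acts on the cell that released it and on its neighbours. P2X receptors are trimeric cation channels opened by ATP, and P2Y receptors couple ADP, ATP, UTP or UDP to G proteins. Entpd1 (CD39) cuts ATP and ADP to AMP, and Nt5e (CD73) cuts AMP to adenosine, which has receptors of its own. In fibroblasts these routes are known for effects on calcium, proliferation and matrix production, and P2rx3 is best known from pain-sensing sensory neurons.

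Libraries held 22168953 to 29421447 counts, so 3 counts, the floor used here, correspond to 0.102 to 0.135 CPM, counts scaled to library size. All 12 fibroblast and stellate markers were detected in numbers that passed the expression filter. Their summed level was lowest in the neratinib group (4656 to 7144 CPM, against 6803 to 8799 CPM in control). The 3 libraries titled PSC4 replicate 1 went against their label: the root mean square log2 difference of the control one was 0.388 to 0.408 from the PSC5 controls and 0.668 to 0.715 from the other PSC4 controls. In CM it was 0.454 to 0.518 from PSC5 and 0.720 from PSC4, and in neratinib medium 0.782 to 0.861 and 0.959. Where removing them changed the call of a gene named below, the value without them is given.

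P2rx7 and P2rx4 are neighbours on chromosome 5, read in the same direction, with 16.1 kb between them, and their upstream sequence is shown because the RNA of the one changed with the media and that of the other was not called changed. RefSeq windows (build GRCm38.p6) were matched for 6 of the 9 members. P2rx3, P2rx5 and P2ry6 had no entry. The stretches run 5′ to 3′ on the plus strand and end at the annotated start of each gene. Capitals mark CAGAC, the core letters bound by SMAD proteins, and TGANTCA, the letters of an AP-1 site, searched on both strands.
P2rx4 (chr5:122707294-122707543, 250 bases): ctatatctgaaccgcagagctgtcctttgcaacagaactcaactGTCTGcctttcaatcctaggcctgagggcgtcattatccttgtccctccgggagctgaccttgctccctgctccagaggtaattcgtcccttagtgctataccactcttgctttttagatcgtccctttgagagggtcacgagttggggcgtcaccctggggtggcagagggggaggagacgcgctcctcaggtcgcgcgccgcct
P2rx7 (chr5:122643677-122643910, 234 bases): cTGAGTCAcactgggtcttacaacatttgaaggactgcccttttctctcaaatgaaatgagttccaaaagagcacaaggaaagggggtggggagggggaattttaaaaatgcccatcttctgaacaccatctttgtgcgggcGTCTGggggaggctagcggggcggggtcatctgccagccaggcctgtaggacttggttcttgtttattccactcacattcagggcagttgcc
The stretch of P2rx4 had 1 CAGAC match, here as its reverse complement, and no TGANTCA match. That of P2rx7 had 1 match of each. CAGAC was present in 42.2% of all 32851 RefSeq windows cut to 250 bases and in 40.2% cut to 234 bases. The TGANTCA letters were rarer, at 6.75% and 6.45%. All 6 members with a window had CAGAC in the 250 bases before a RefSeq start and P2rx7 alone had TGANTCA. The P2rx4 stretch held 13 CpG dinucleotides and the P2rx7 stretch 4. A match is a description of letters, not a measured site.

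P2rx3 (ENSMUSG00000027071, chromosome 2, minus strand, 84998583 to 85037462 on GRCm38) encodes the P2X3 channel subunit. It went from a minor transcript to the highest of the 9 per exon length when neratinib was present. The controls had 10.7, 3.25 and 2.01 CPM in PSC4 replicates 1 to 3 and 4.81 and 7.23 CPM in PSC5. With TGF-beta the values were 2.59 and 1.59 CPM in PSC4 replicates 2 and 3 and 4.09 and 3.13 CPM in PSC5. In CM they were 19.3 and 4.02 CPM in PSC4 and 13.2 and 11.97 CPM in PSC5. In CM with neratinib they reached 209 and 120 CPM in PSC4 and 118 and 204 CPM in PSC5. Every neratinib library was above every other library, while the control, TGF-beta and CM ranges overlapped one another.

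**Figure D1:**
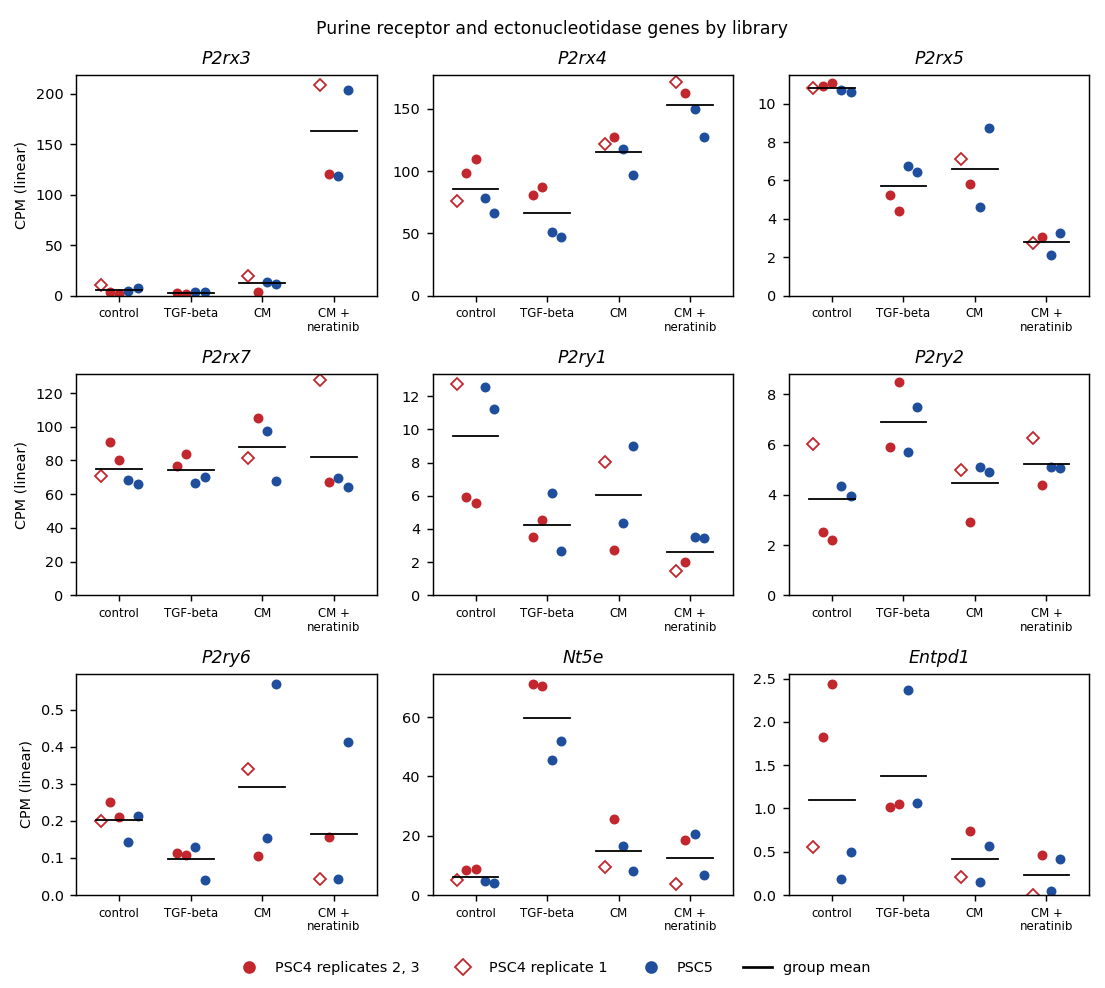
CPM (linear axes from 0) of each of the 9 genes in all 17 libraries, 1 point per library, by medium, with the group mean as a line; open diamonds are the libraries titled PSC4 replicate 1. P2rx3 is above 118 CPM in all 4 neratinib libraries and at most 19.3 CPM elsewhere, Nt5e is highest with TGF-beta, and P2rx5 is highest in control.

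Group means of P2rx3 were 5.60 ± 3.45 CPM in control (SD, n = 5), 2.85 ± 1.04 with TGF-beta, 12.1 ± 6.27 in CM and 163 ± 50.3 CPM with neratinib (SD, n = 4 each). The fitted log2 fold change was 3.75 (SE 0.49) for neratinib against CM and 4.85 (SE 0.48) for neratinib against control. Within the 4 pairs of line and replicate number, neratinib medium held 10.8, 29.8, 8.94 and 17.0 times the CPM of CM. CM against control was 1.10 (SE 0.45), above the control mean in 3 of 4 libraries. PSC4 replicate 2 in CM, at 4.02 CPM, lay inside the control range. By line as labelled, neratinib medium was 30.9 times control in PSC4 and 26.7 times in PSC5. The PSC4 ratio includes the libraries titled PSC4 replicate 1. Outside them, PSC4 had 120 CPM with neratinib (replicate 2) and 3.25 and 2.01 CPM in control (replicates 2 and 3).

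TGF-beta against control was not the comparison that chose the genes, and there P2rx3 was not called (log2 fold change -1.01, SE 0.51, adjusted p 0.127, edgeR), with 4 of 4 libraries below the control mean. The adjusted p ranged from 0.0638 to 0.338 over 17 alternatives. P2rx3 shares 51 of its 2789 exon bases with Ssrp1 on the opposite strand, and strand use in counting is not given in the sources used here. Ssrp1, a histone chaperone subunit, had 348 ± 21.5 CPM in control (SD, n = 5) and 488 ± 62.9 with neratinib (SD, n = 4). The part of this overlap in the P2rx3 values was not tested.

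Because P2X3 is known from sensory neurons, markers of that cell type were read beside it. The summed level of the 10 sensory neuron markers was 4.68 to 7.57 CPM in control, 4.42 to 6.70 with TGF-beta, 5.29 to 10.7 in CM and 5.66 to 13.4 CPM with neratinib. Scn10a was at 0 in all 17 libraries, and Trpv1 and Calca never exceeded 3 counts. In bulk RNA, more cells that carry a transcript and more transcript per cell cannot be told apart.

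P2rx4 (ENSMUSG00000029470, chromosome 5, 122707544 to 122729738) encodes the widely expressed P2X4 channel of endolysosomes and the plasma membrane. Its transcript was highest with neratinib and lowest with TGF-beta. The controls had 76.0, 98.3 and 110 CPM in PSC4 and 78.8 and 66.2 CPM in PSC5. TGF-beta libraries had 80.5 and 87.1 CPM in PSC4 and 51.5 and 47.1 CPM in PSC5. CM gave 122 and 127 CPM in PSC4 and 118 and 96.5 CPM in PSC5. Neratinib medium gave 171, 163, 150 and 127 CPM. The neratinib group lay above all controls and all TGF-beta libraries, and its lowest library matched the highest of CM.

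Against control, P2rx4 was 0.88 higher on the log2 scale with neratinib (SE 0.12, adjusted p 8.31e-05, edgeR, 4 of 4 libraries) and 0.48 higher in CM (SE 0.12, adjusted p 0.0175, 4 of 4). The CM call was lost without CM PSC5 replicate 1 (0.40, adjusted p 0.0730; range over 17 alternatives 0.000814 to 0.0730). With TGF-beta it was 0.35 lower (log2 fold change -0.35, SE 0.12, adjusted p 0.0318, 3 of 4 libraries), a call lost in 6 of 17 alternatives, where the adjusted p rose to as much as 0.113. The mean ratio of neratinib medium to control was 1.77 in PSC4, with the libraries titled PSC4 replicate 1 included, and 1.91 in PSC5. Neratinib against CM was 0.40 (SE 0.13), with pair ratios of 1.41, 1.28, 1.28 and 1.32.

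P2rx5 (ENSMUSG00000005950, chromosome 11, 73160421 to 73172685) encodes the P2X5 subunit. It was highest and almost uniform in control, and lower in each of the other media. The 5 controls spanned 10.6 to 11.1 CPM (10.8 ± 0.179, SD, n = 5). With TGF-beta the values were 5.22 and 4.41 CPM in PSC4 and 6.75 and 6.43 CPM in PSC5. CM libraries had 7.13 and 5.82 CPM in PSC4 and 4.63 and 8.75 CPM in PSC5. With neratinib they had 2.77, 3.03, 2.12 and 3.25 CPM. No treated library reached the control range, and no neratinib library reached the CM range.

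The fall of P2rx5 was -0.94 with TGF-beta (SE 0.18, adjusted p 0.000817, edgeR), -0.72 in CM (SE 0.18, adjusted p 0.0161) and -1.96 with neratinib (SE 0.19, adjusted p 5.43e-06), in 4 of 4 libraries each. These 3 comparisons share the control libraries. The CM call was lost without CM PSC4 replicate 2 (-0.67, adjusted p 0.0537) or CM PSC5 replicate 1 (-0.58, adjusted p 0.0547, with 0.00112 to 0.0547 across the alternatives). Neratinib against CM was -1.23 (SE 0.19).

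P2rx7 (ENSMUSG00000029468, chromosome 5, 122643911 to 122691432) encodes the P2X7 channel, which needs high ATP and has been studied in pancreatic stellate cells for effects on growth and death. It was among the highest members per exon length and was not called in any comparison of media. Control libraries had 66.0 to 90.7 CPM, TGF-beta libraries 66.7 to 84.2 and CM libraries 67.8 to 105 CPM. With neratinib PSC4 replicate 1 had 128 CPM and the other libraries 64.2 to 69.9 CPM. All 4 ranges overlapped. Against control the log2 fold change was 0.02 with TGF-beta (adjusted p 0.951, edgeR), 0.26 in CM (0.308) and 0.15 with neratinib (0.475), each with an SE of 0.16. A p that misses the threshold does not show that the level stayed the same, and the TGF-beta and neratinib differences took the opposite sign in some fits, including -0.13 for neratinib without the 3 libraries titled PSC4 replicate 1. The miRNA gene Mir8115 shares 119 exon bases with P2rx7.

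**Figure D2:**
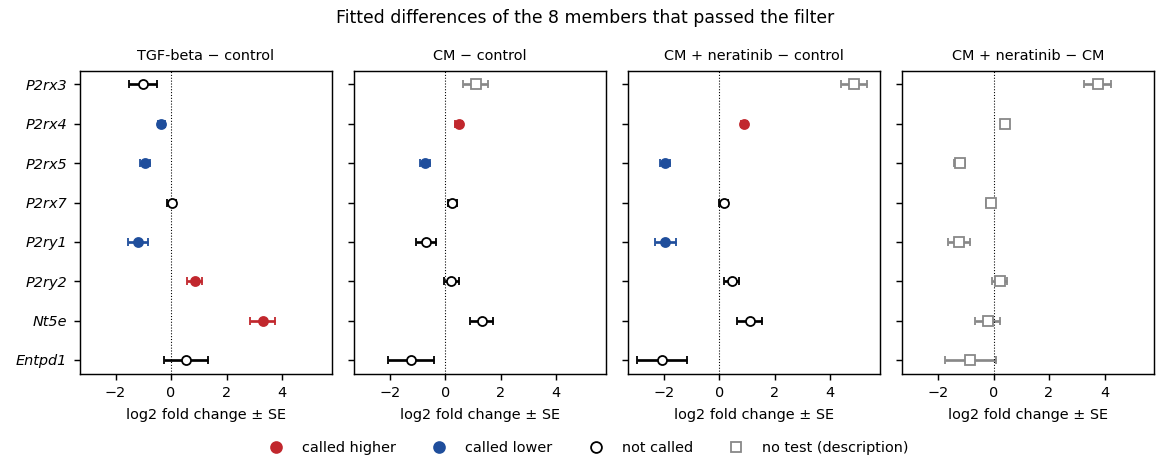
Fitted log2 fold change with its SE for the 8 genes that passed the expression filter, in 4 comparisons of media. Filled points passed an adjusted p of 0.05 in edgeR, and grey squares were not tested because the comparison, or P2rx3 in it, belongs to the values the genes were chosen by; P2rx5 lies left of 0 in all 4 panels.

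P2ry1 (ENSMUSG00000027765, chromosome 3, 61002795 to 61008982) encodes the ADP receptor P2Y1, which couples to phospholipase C. Its transcript was lower with TGF-beta and in CM with neratinib than in control. Controls were 12.8, 5.94 and 5.57 CPM in PSC4 and 12.5 and 11.2 CPM in PSC5. TGF-beta libraries had 3.53, 4.55, 6.15 and 2.69 CPM, and CM libraries 8.02, 2.72, 4.36 and 8.99 CPM. Neratinib libraries had 1.45, 2.02, 3.50 and 3.48 CPM, all below every control, while the TGF-beta and CM ranges reached into the control range.

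On the log2 scale P2ry1 was 1.20 lower with TGF-beta (log2 fold change -1.20, SE 0.36, adjusted p 0.0157, edgeR, 4 of 4 libraries), a call lost without TGF-beta PSC5 replicate 2 (-0.98, adjusted p 0.0518, range 0.00395 to 0.0518). In CM with neratinib it differed from control by -1.96 (SE 0.38, adjusted p 0.000998, 4 of 4). The CM difference of -0.70 was not called (SE 0.35, adjusted p 0.207). Neratinib against CM was -1.25 (SE 0.39), and the fall was unequal among pairs, 5.54-fold in PSC4 replicate 1 and 1.24-fold in PSC5 replicate 1. The antisense gene Gm37035 covers 992 of the 4291 exon bases of P2ry1.

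P2ry2 (ENSMUSG00000032860, chromosome 7, minus strand, 100996568 to 101012866) encodes P2Y2, a receptor for ATP and UTP. Among the 3 P2Y members it was the one that rose with TGF-beta. Its controls had 6.04, 2.50 and 2.22 CPM in PSC4 and 4.35 and 3.97 CPM in PSC5. TGF-beta libraries had 5.90, 8.49, 5.72 and 7.49 CPM, overlapping the controls through the library titled control PSC4 replicate 1. The difference was 0.85 (SE 0.26, adjusted p 0.0180, edgeR, 4 of 4 libraries) and was not called without TGF-beta PSC4 replicate 3 (0.70, adjusted p 0.0766, range 0.000636 to 0.0766). CM libraries spanned 2.93 to 5.13 CPM and neratinib libraries 4.40 to 6.26 CPM. Neither was called against control (0.22, adjusted p 0.625, and 0.45, adjusted p 0.190). Without control PSC4 replicate 1 the neratinib difference was called (0.71, adjusted p 0.0259, range 0.0259 to 0.437).

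P2ry6 (ENSMUSG00000048779, chromosome 7, minus strand, 100937630 to 100974649), a UDP receptor, lies 21.9 kb from P2ry2. It did not pass the expression filter and was not tested. It averaged 0.203 CPM in control, 0.292 in CM and 0.164 with neratinib, and was at or under the floor of 3 counts in every TGF-beta library. The highest library, CM PSC5 replicate 2, had 0.570 CPM.

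Nt5e (ENSMUSG00000032420, chromosome 9, 88327197 to 88372092) encodes CD73, the enzyme that releases adenosine from AMP. It had the largest tested change of any member. The controls had 5.13, 8.40 and 8.81 CPM in PSC4 and 4.74 and 4.11 CPM in PSC5. With TGF-beta the values rose to 71.2 and 70.5 CPM in PSC4 and 45.6 and 52.0 CPM in PSC5. All TGF-beta libraries lay above all 13 others. The mean was 59.8 against 6.24 CPM, a ratio of 9.59, and the log2 fold change was 3.31 (SE 0.45, adjusted p 4.16e-05, edgeR). By line the ratio was 9.51 in PSC4, with the control titled PSC4 replicate 1 included, and 11.0 in PSC5.

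In CM, Nt5e had 9.55 and 25.7 CPM in PSC4 and 16.5 and 8.08 CPM in PSC5, which overlapped the controls at its lowest library. The difference of 1.31 was not called (SE 0.43, adjusted p 0.0574, edgeR, 4 of 4 libraries), but 7 of 17 alternatives called it, among them the fit with line and replicate number as a block (1.31, adjusted p 0.0105, range 0.00877 to 0.210) and that without the 3 libraries titled PSC4 replicate 1 (1.47, adjusted p 0.00877). With neratinib the values were 3.79, 18.6, 20.5 and 6.78 CPM, a difference from control of 1.09 (SE 0.44, adjusted p 0.0585, 3 of 4 libraries). The block called that too (0.98, adjusted p 0.0196), as did the fit without the 3 libraries titled PSC4 replicate 1 (1.41, adjusted p 0.00449, with 0.00449 to 0.248 across the alternatives). Neratinib against CM was -0.22 (SE 0.45), higher in 1 pair and lower in the other 3.

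Entpd1 (ENSMUSG00000048120, chromosome 19, 40612366 to 40741602), which encodes CD39, was low, with 0 to 69 counts in a library. Controls had 0.556, 1.82 and 2.43 CPM in PSC4 and 0.180 and 0.496 CPM in PSC5, and TGF-beta libraries 1.01, 1.05, 2.37 and 1.06 CPM. CM libraries had 0.153 to 0.741 CPM. Neratinib libraries had 0 to 0.467 CPM. No medium was called against control in edgeR: the differences were 0.55 with TGF-beta (SE 0.79, adjusted p 0.616), -1.23 in CM (SE 0.82, adjusted p 0.350) and -2.07 with neratinib (SE 0.89, adjusted p 0.0720). DESeq2 called the last (-2.06, adjusted p 0.0367), as did the edgeR fit without control PSC5 replicate 1 (-2.43, adjusted p 0.0417, with 0.0367 to 0.172 across the alternatives). Entpd1 is carried by immune and endothelial cells as well. The 8 macrophage and myeloid markers summed to 2.28 to 3.93 CPM in control and 2.53 to 3.70 CPM with TGF-beta. In CM their sum was 2.84 to 3.68 CPM and with neratinib 2.81 to 12.8 CPM, with Adgre1 at 0 in every library. The 6 endothelial markers summed to 4.13 to 8.83 CPM in control and 7.28 to 21.9 CPM with TGF-beta. In CM their sum was 2.50 to 5.14 CPM and with neratinib 3.52 to 30.1 CPM. Both upper ends with neratinib were the library titled PSC4 replicate 1, where Entpd1 had 0 counts. In the other neratinib libraries the sums were 2.81 to 3.81 CPM (myeloid) and 3.52 to 10.3 CPM (endothelial). Single markers reached up to 12.3 CPM (Cd68) and 29.8 CPM (Vwf) in a library. The part of immune and endothelial cells in the Entpd1 values was not tested.

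Of the 9 members, P2ry6 was not tested in any comparison. With TGF-beta 5 of the 8 tested members were called, Nt5e and P2ry2 higher and P2rx4, P2rx5 and P2ry1 lower, where 40.2% of all 13923 tested genes were called. Without TGF-beta PSC5 replicate 2 the count was 3 of 8, against 34.9% of all genes. In CM 2 of the 7 tested members were called, P2rx4 higher and P2rx5 lower, against 14.2% of all genes. The count was 0 of 7 without CM PSC5 replicate 1 (5.68% of all genes) and 1 of 7 without CM PSC4 replicate 2 (9.01%). With neratinib against control 3 of 7 were called, P2rx4 higher and P2rx5 and P2ry1 lower, against 43.1% of all genes, and DESeq2 called 5 of 7, against 46.6%. Whether the members were called more often than other genes was not tested. With line and replicate number as a block, CM against control called 3240 genes in place of 1976 and neratinib against CM 4563 in place of 2850. Neratinib against CM called 20.5% of all genes, and no member was tested there.

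Levels were compared between genes only per kilobase of exons. In control the order was P2rx7 (12.6 CPM per kb), P2rx4 (12.2), P2rx5 (4.52), P2ry1 (2.24), P2rx3 (2.01), P2ry2 (0.972), Nt5e (0.725), Entpd1 (0.197) and P2ry6 (0.0705). P2rx7 and P2rx4 did not differ beyond their spread, nor did P2ry1 and P2rx3. With TGF-beta, Nt5e moved from the seventh place to the third (6.95 CPM per kb), behind P2rx7 (12.5) and P2rx4 (9.47). In CM P2rx4 (16.5) and P2rx7 (14.7) overlapped at the top, and P2rx3 (4.35) was next. With neratinib P2rx3 came first, at 58.3 ± 18.1 CPM per kb (SD, n = 4), and its lowest library (42.4) was above the highest of P2rx4 (24.4).

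**Figure D3:**
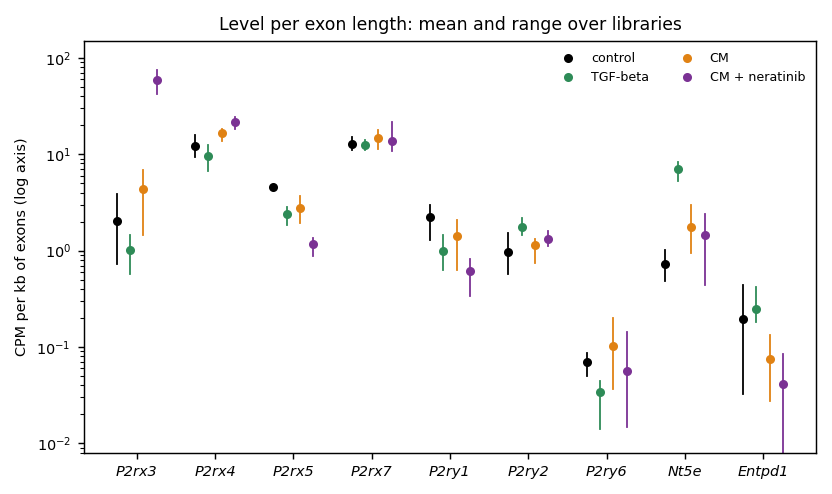
CPM per kilobase of exons (log axis) for each gene and medium; points are group means and lines run from the lowest to the highest library, cut at the lower edge for Entpd1 with neratinib, where 1 library was at 0. P2rx3 runs from 1.02 with TGF-beta to 58.3 with neratinib, and P2rx7 stays between 12.5 and 14.7.

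The rest of the pathway was read from 42 genes in 5 lists, of which 28 passed the filter. With TGF-beta 14 of the 28 were called, 9 higher and 5 lower, where 40.2% of all tested genes were called. Their median log2 fold change was -0.01, against -0.02 over all tested genes. In CM 5 were called, 2 higher and 3 lower (14.2% of all genes), and with neratinib against control 13, 7 higher and 6 lower (43.1% of all genes). Neratinib against CM called 6 of 28, 3 in each direction (20.5% of all genes). The median log2 fold changes in these 3 comparisons were -0.05, -0.07 and 0.03, beside 0.00, 0.01 and 0.00 over all tested genes. Of the 8 P2 receptors outside the set, 2 passed the filter. P2rx6 fell in CM (-1.93, adjusted p 0.0165, edgeR) and with neratinib against control (-1.69, adjusted p 0.0109), from 1.18 CPM in control to 0.305 and 0.362 CPM. Its counts were 19 to 44 in control, 6 to 10 in CM and 2 to 15 with neratinib, the last 2 near the floor of 3 counts. The CM call was lost without CM PSC5 replicate 1 (-1.81, adjusted p 0.0661, range 0.00138 to 0.0661) and the neratinib call without the 3 libraries titled PSC4 replicate 1 (-1.30, adjusted p 0.0538, range 0.00228 to 0.0538). P2ry14, a receptor for UDP-sugars, was 0.142 CPM in control and 0.543 with TGF-beta (1.89, adjusted p 0.0342, edgeR). It had 0 to 7 counts in the control libraries, near the floor of 3 counts, and 8 to 20 with TGF-beta. The call was lost in 6 of 16 alternatives, among them the fit without the expression filter (1.89, adjusted p 0.0520).

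Among the 11 other nucleotide hydrolases, 9 passed and 5 were called with TGF-beta, 4 higher and 1 lower (40.2% of all tested genes were called). Enpp1, which makes AMP and pyrophosphate from ATP, had 222 to 500 CPM with TGF-beta and 71.0 to 133 CPM in control, without overlap. Its log2 fold change was 1.86 (SE 0.41, adjusted p 0.00197, edgeR). Enpp3, an enzyme of the same family, rose by 2.09 (SE 0.40, adjusted p 0.000717), and the intracellular nucleotidase Entpd7 by 0.52 (SE 0.06, adjusted p 2.03e-05). The fall was in Alpl, tissue-nonspecific alkaline phosphatase, which cleaves AMP and pyrophosphate: from 3.09 to 0.236 CPM (-3.67, SE 0.54, adjusted p 8.91e-05). Alpl had 48 to 120 counts in the control libraries and 3 to 9 with TGF-beta, near the floor of 3 counts. In CM none of the 9 was called in edgeR, where 14.2% of all tested genes were. Of the 9, 1 had an unadjusted p under 0.05. With neratinib against control, where 43.1% of all tested genes were called, 2 were lower, Enpp3 (-1.43, adjusted p 0.0174) and Entpd4 (-0.31, adjusted p 0.0107). Both calls were lost with only the compared groups in the model (0.0765 and 0.0523), the highest of ranges that began at 0.00169 and 0.00326. Neratinib against CM called 0 of the 9, where 20.5% of all tested genes were called.

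The ATP release list held 8 genes, of which 6 passed. With TGF-beta 3 were called, all higher, where 40.2% of all tested genes were called. Ank, a membrane protein that exports ATP and pyrophosphate, went from 210 to 818 CPM (1.96, SE 0.17, adjusted p 8.40e-07, edgeR). Gja1, the connexin 43 hemichannel, went from 83.8 to 279 CPM (1.74, SE 0.17, adjusted p 2.38e-06), and Lrrc8a, a subunit of the volume-regulated anion channel, rose by 0.43 (SE 0.08, adjusted p 0.000388). With neratinib against control Gja1 (0.78, adjusted p 0.00200) and Lrrc8a (0.36, adjusted p 0.00173) rose and Ank fell (-1.06, adjusted p 0.000354). Neratinib against CM called 0 of the 6, where 20.5% of all tested genes were called. Gja1 averaged 138 CPM in CM and 144 CPM with neratinib. In CM Gja1 rose (0.73, adjusted p 0.0120) and Ank fell (-0.61, adjusted p 0.0307). The fall of Ank in CM was lost in 8 of 17 alternatives, with an adjusted p of up to 0.0925, reached without the 3 libraries titled PSC4 replicate 1 (-0.53).

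Of the 4 adenosine receptors 3 passed. Adora2b, the low-affinity receptor, fell with TGF-beta from 15.6 to 6.24 CPM (-1.36, SE 0.25, adjusted p 0.000576, edgeR), without overlap of libraries. It rose with neratinib against control, to 28.3 CPM (0.84, SE 0.24, adjusted p 0.0106). Adora2b averaged 21.3 CPM in CM, and its difference between neratinib and CM was not called. Adora2a was lower with neratinib than in CM, at 8.28 against 13.9 CPM (-0.76, SE 0.25, adjusted p 0.0427, 4 of 4 libraries). That call was lost in 7 of 16 alternatives, among them the fit without the 3 libraries titled PSC4 replicate 1 (-0.52, adjusted p 0.118, range 0.00853 to 0.134).

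**Figure D4:**
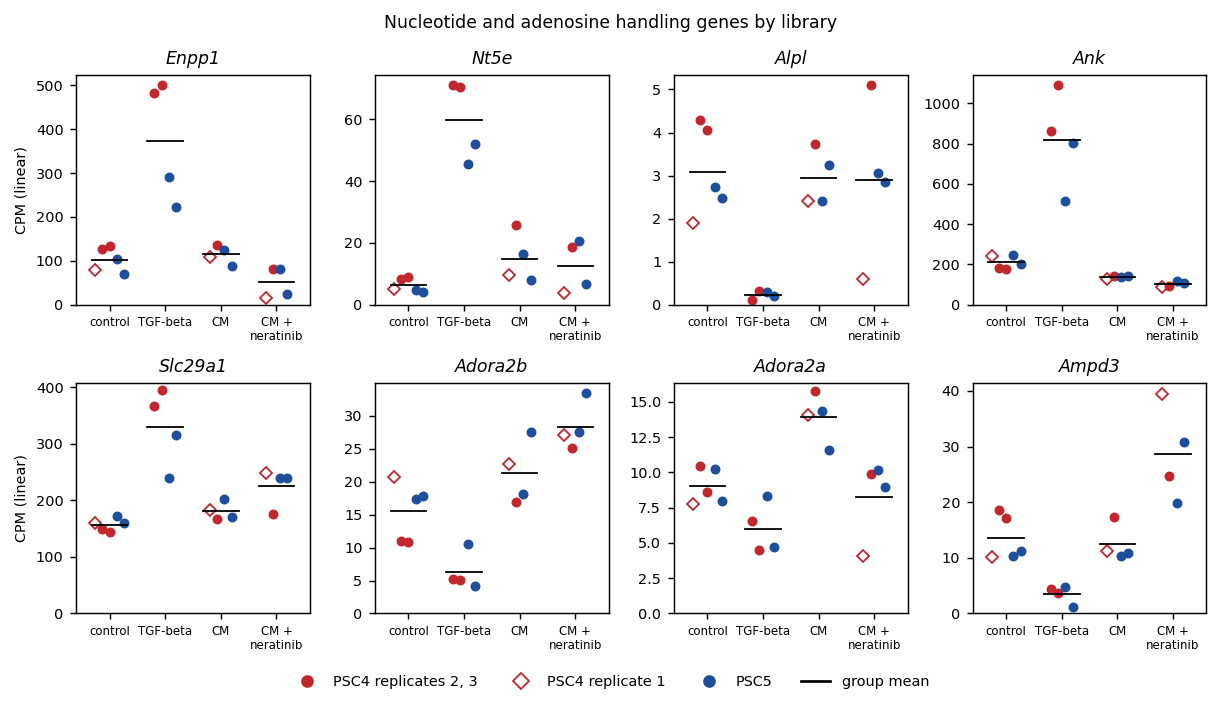
CPM (linear axes from 0) in each of the 17 libraries for Nt5e and 7 genes of nucleotide and adenosine handling, with group means as lines and open diamonds for PSC4 replicate 1. Enpp1, Nt5e, Ank and Slc29a1 are highest with TGF-beta, where Alpl, Adora2b and Ampd3 are lowest.

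Adenosine uptake and turnover had 8 genes that passed the filter. With neratinib 6 of them were called against control, 4 higher and 2 lower, where 43.1% of all genes were called. Against CM 5 were called, 3 higher and 2 lower, where 20.5% of all genes were. Ampd3, AMP deaminase, went from 13.5 CPM in control and 12.4 in CM to 28.7 CPM with neratinib (1.14, adjusted p 0.00522, against control, and 1.21, adjusted p 0.0123, against CM, edgeR). Without the 3 libraries titled PSC4 replicate 1 its rise over CM was not called (1.02, adjusted p 0.0518, range 0.000935 to 0.0518). The lysosomal nucleoside transporter Slc29a3 rose over CM (0.56, SE 0.10, adjusted p 0.00210), as did the equilibrative transporter Slc29a2 (0.60, adjusted p 0.0150), whose call was lost in 4 of 16 alternatives, among them the fit without the 3 libraries titled PSC4 replicate 1 (0.46, adjusted p 0.0913, range 0.00120 to 0.0983). Ada, adenosine deaminase, was lower than in CM, at 9.71 against 16.9 CPM (-0.79, SE 0.21, adjusted p 0.0159), a call lost with only the compared groups in the model (adjusted p 0.0782, range 0.00246 to 0.0782). Against control, Slc29a2 (0.78, adjusted p 0.000845) and the equilibrative transporter Slc29a1 (0.52, adjusted p 0.00595) were higher with neratinib. Slc29a1 was not among the 3 called higher over CM. Ada was lower than in control (-0.60, adjusted p 0.0234), a call lost in 4 of 17 alternatives, with an adjusted p of up to 0.0729 without the neratinib library PSC4 replicate 1 (-0.40).

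With TGF-beta 4 of these 8 genes were called, 1 higher and 3 lower, where 40.2% of all tested genes were called. Slc29a1 rose from 157 to 329 CPM (1.07, SE 0.13, adjusted p 2.04e-05, edgeR). Ampd3 fell from 13.5 to 3.53 CPM (-1.89, SE 0.31, adjusted p 0.000235), the purine nucleoside phosphorylase Pnp by 0.44 (-0.44, adjusted p 0.00106) and the adenosine kinase Adk by 0.42 (-0.42, adjusted p 0.00112). In CM Pnp rose (0.39, adjusted p 0.00969) and Adk fell (-0.37, adjusted p 0.0121).

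The lines were compared over all media, with 6.97% of all genes called. As labelled, 1 of the 8 tested members was called, P2rx4, lower in PSC5 (-0.41, SE 0.09, adjusted p 0.0267, edgeR, lower than the PSC4 mean in 5 of 8 libraries). Leaving out any of 9 single libraries lost that call. Without the 3 libraries titled PSC4 replicate 1, 5 of 8 tested members were called, and so were 42.6% of all genes. P2rx3 (0.95, with 0.08 to 1.13 across 23 alternatives) and P2ry1 (0.77, adjusted p 0.0199, range over 23 alternatives 0.0199 to 0.356) were then higher in PSC5, and P2rx4 (-0.48), P2rx7 (-0.25) and Nt5e (-0.74, adjusted p 0.0160, range 0.0142 to 0.694) lower. The CM and neratinib libraries that P2rx3 was chosen by enter these line fits. Its line difference is therefore a description, although it is counted among the 5 members. With these libraries counted as PSC5, 5 of 8 members and 43.4% of all genes were called, with P2ry2 (0.49, adjusted p 0.0276, range 0.0276 to 0.966) in place of P2rx7.

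**Figure D5:**
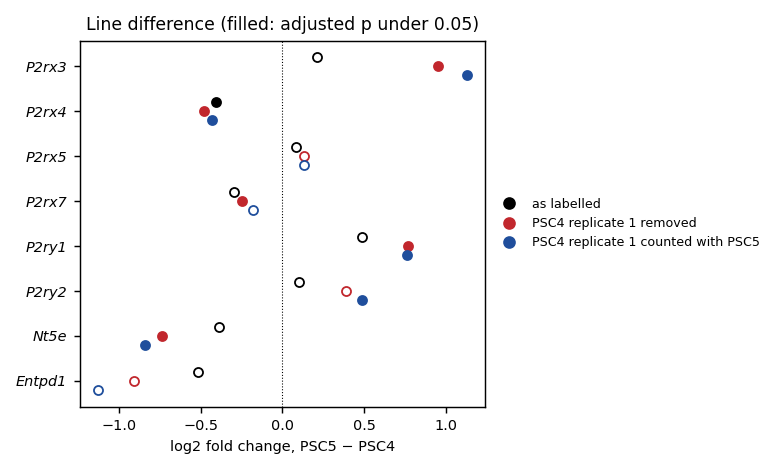
Log2 fold change of PSC5 against PSC4 for the 8 genes that passed the filter, with the libraries titled PSC4 replicate 1 as labelled, removed, or counted with PSC5; filled points passed an adjusted p of 0.05 in edgeR. P2rx3, whose line difference is a description, moves from 0.21 as labelled to 0.95 and 1.13.

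In edgeR no gene of the 13923 (0%) was called for a line difference in response to TGF-beta, CM or neratinib against CM. There 601, 43 and 237 genes had an unadjusted p under 0.05, and DESeq2 called 27, 0 and 1. These fits kept the libraries titled PSC4 replicate 1 under their label, and counting them as PSC5 was not tried for the responses. For P2rx3 the line difference in the neratinib response was -0.14 (SE 0.99), an SE that leaves differences of a log2 unit undetectable. The medium codes T8 and T6 likewise gave 0 called genes in edgeR (0%), with 906 under an unadjusted p of 0.05 and 36 called by DESeq2. No member was called there. P2rx3 was -0.19 (SE 0.37) in T8 against T6. Epithelial markers moved with the code: the 8 markers summed to 139 to 307 CPM in the T6 libraries, to 9.14 to 48.6 CPM in the T8 libraries, and to 16.7 to 24.9 CPM in control. P2rx3 with neratinib was 209 and 118 CPM in T8 and 120 and 204 CPM in T6, so both codes held a high and a low library.

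Genes whose pattern was most like that of P2rx3 were ranked by Pearson's r of log2 CPM over the 17 libraries, among 12412 genes. The neratinib libraries lie apart on P2rx3 and weigh heavily in r, and libraries share lines and media, so r is a description. The highest were Rhbdd3 (0.980), Fam129a (0.962), Aph1a (0.953), Ddrgk1 (0.947) and Cldn12 (0.947). Over the 13 libraries without neratinib their r was 0.940, 0.849, 0.859, 0.855 and 0.753. These 13 are among the 17 libraries the genes were ranked by, so this r is not a separate check. Aph1a is a gamma-secretase subunit and Cldn12 a claudin. Rhbdd3, a rhomboid-family protein, averaged 10.4 CPM in control, 9.05 with TGF-beta, 11.6 in CM and 18.5 CPM with neratinib, in the same order as P2rx3 but over a much smaller range. The most opposite were Klhl18 (-0.936), Gmcl1 (-0.933) and Lhx9 (-0.929), a LIM homeobox factor that went from 3.73 CPM in control to 0.850 CPM with neratinib.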

How the data were processed

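Counts were estimated by the authors with Salmon 1.4.0 on GRCm38, per the submitters' processing notes, and were deposited as estimated counts by gene ID. Of these, 74.8% of the values above 0 were not whole. They were rounded, which moved a library total by at most 307.9. Symbols, positions and union-exon lengths came from GENCODE M21, and promoter stretches from RefSeq. edgeR 4.0.16 (R 4.3.3) was used with TMM factors. Genes were kept by its expression filter by group (minimum count 10, total 15), leaving 13923, and were fitted by quasi-likelihood with group and line over all 17 libraries. The medium codes used a block and the line responses an interaction. A gene was called at a Benjamini-Hochberg adjusted p under 0.05 over all tested genes. CPM values use TMM-scaled library sizes. Marker sums use plain library totals.

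The members and the gene lists were chosen with earlier results of these data known, so their counts are descriptions. All members are named, and of each list all called genes, or, above 4, the 4 with the largest log2 fold change. Alternatives were DESeq2 1.42.0, other scaling factors, no filter, a replicate block, the compared groups alone, and left-out or relabelled libraries. The code was tested on simulated counts. Replicate numbers were taken to pair libraries of a line: over 22 pairs with the same line and number, deviations from group means correlated at 0.120 or more (median 0.299). Without the libraries titled PSC4 replicate 1 the median was 0.288, against 0.255 for libraries of 1 line with different numbers. Passage goes with number.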

Additional observations from a re-analysis of the deposited data

Results flagged for a closer look

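In 3 of 36 combinations of gene and medium 1 library lay far from the rest by Dixon's criterion, which chance meets in about 1 of 20. P2rx7 was 128 CPM in the neratinib library titled PSC4 replicate 1, with the next at 69.9 CPM. P2ry2 was 2.93 CPM in CM PSC4 replicate 2, with the next at 4.90 CPM. Entpd1 was 2.37 CPM in TGF-beta PSC5 replicate 1, with the next at 1.06 CPM.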

How the results depend on the processing

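With the replicate block, CM against control called 3240 genes and neratinib against CM 4563, against 1976 and 2850. Beside Nt5e in CM and with neratinib, the block changed no call of a member between media. CM called 2986 genes with the libraries titled PSC4 replicate 1 counted as PSC5, and neratinib against CM 602 with only those groups in the model. PSC5 against PSC4 called 2234 genes with DESeq2, 5980 without PSC4 replicate 1 and 6046 with it counted as PSC5, and 5 members in both of the latter, against 970 genes and 1 member. DESeq2 called 5 of 7 members with neratinib against control, where it called 46.6% of all genes. T8 against T6 called 36 genes with DESeq2 and 5 without PSC4 replicate 1. The line difference in the TGF-beta response called 27 and 2, and that in the neratinib response 1 with DESeq2. The cause of these shifts was not tested.

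Leaving out 1 library at a time gave 801 to 1793 genes for CM, 1748 to 3685 for neratinib against CM, 0 to 3058 for the lines and 0 to 2 for the media codes. The members called were 3 to 5 of 8 for TGF-beta, 0 to 3 of 7 for CM and 0 to 1 of 8 for the lines. The shares of all tested genes called were then 33.7% to 39.7%, 5.68% to 12.9% and 0% to 21.7%. The sign turned for values near 0: P2rx7 with TGF-beta (-0.03 with upper-quartile factors, without PSC4 replicate 1 or with it as PSC5, and -0.03 to 0.06 over left-out libraries), P2rx7 with neratinib (-0.13 without PSC4 replicate 1, and -0.11 to 0.27), P2rx5 between lines (0.00 to 0.16), P2rx3 and Nt5e between codes (-0.41 to 0.02, and -0.11 to 0.58) and P2ry2 between codes (0.12 without PSC4 replicate 1). Upper-quartile factors put 41.3% of TGF-beta calls, 37.5% of CM calls and 41.1% of neratinib calls against control higher, against 49%, 49.7% and 51.4%. With plain library totals no place in the per-kilobase order changed in 36 levels, and 1 level, P2rx5 in control, moved by more than 1 SD. At these totals P2ry6 and, in the CM and neratinib groups, Entpd1 (0 to 21 counts) are limited by counts near the floor. Without PSC4 replicate 1, r with P2rx3 was 0.978 for Rhbdd3, which kept the first rank.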

Other observations

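In neratinib medium, libraries labelled as the same line lay far apart for several genes of nucleotide handling. Nt5e had 3.79 CPM in PSC4 replicate 1 and 6.78 in PSC5 replicate 2, against 18.6 in PSC4 replicate 2 and 20.5 in PSC5 replicate 1. Enpp1 had 14.4 and 25.4 CPM in the first pair of libraries and 81.9 and 81.1 CPM in the second. P2rx3 was 209 and 204 CPM in the first pair and 120 and 118 CPM in the second. As labelled, these pairs cross the lines, the replicate numbers and the medium codes. The library titled PSC4 replicate 1 lay nearer to PSC5 than to PSC4, so by that likeness the first pair would not cross the lines. These differences were seen in the values and not tested.

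Over the 17 libraries, log2 CPM of P2rx5 and P2ry1 had a Pearson r of 0.78, the highest between members, and P2rx3 and Entpd1 -0.73, the lowest. Libraries share media and lines, so these are descriptions.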
